A study of Mus musculus with 18 samples.

Results

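Cytosolic ribosomal protein genes were followed in mouse embryos that lacked Oct4 (genotype Oct4 -/-, called null here) and in wild type embryos (Oct4 +/+), all of strain CD1. Members were taken by symbol: every gene of the 3 deposited tables named Rpl or Rps followed by a digit, with Rpsa, Rplp0, Rplp1 and Rplp2, and without pseudogenes marked -ps, kinases named Rps6k and symbols that start with Rps19bp. The rule used names and no measured value. It found 72 genes among 8202 in any table, 42 of the large subunit and 30 of the small subunit, and 67 of them were in all 3 tables. By table, 71 members stood among 7082 genes at E2.5 (embryonic day 2.5), 70 among 6648 at E3.75. At E4.5 it was 68 among 6545. A gene had entered a table only with at least about 10.3 counts scaled to a common library total (CPM) in 3 of its 6 libraries, so members below that are not described. The reference annotation holds 92 symbols that the rule accepts. Of them, 20 had no row in the tables used here, among them Rpl3, Rpl11, Rpl24, Rpl41, Rps27 and Rps28. A missing row need not mean a low gene, since the marked pseudogene Rpl3-ps1 did have a row at E2.5, with a mean of 332.5 CPM.

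Each stage had 3 null and 3 wild type libraries of poly(A) RNA, made from oligo(dT)-primed cDNA and read mostly near the 3′ end of transcripts. The embryos had been flushed from oviducts or uteri. The labels name no promoter, Cre line or clone for the null allele. The expression unit was CPM, scaled by the authors within each stage. Median library depth was 1917754 reads in null and 916720 in wild type at E2.5. It was 1375610 in null and 576078 in wild type at E3.75. At E4.5 it was 1314657 in null and 543033 in wild type, so that null had the higher median depth at each stage. The third library of each group resembled a weighted average of the first 2, with a variance over sampling noise of 1.09 to 1.29 against 1.39 to 3.06 for the others. Calls are therefore also given with the first 2 libraries of each group. The 3 wild type columns at E4.5 carried 1 shared heading and are called A, B and C. Pou5f1, the gene of Oct4, averaged 968 ± 40.1 CPM in null and 1875 ± 194 CPM in wild type at E2.5. It averaged 258 ± 33.3 CPM in null and 509 ± 114 CPM in wild type at E3.75. At E4.5 it averaged 112 ± 26.9 CPM in null and 231 ± 45.9 CPM in wild type (SD, n = 3 each). Pou5f1 was lower in every null library than in every wild type library of its stage, with RNA still counted in null embryos. In whole embryos, fewer cells of a type and less RNA per cell cannot be told apart.

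Ribosomal protein mRNAs encode the structural proteins of the small subunit, which decodes mRNA, and of the large subunit, which forms peptide bonds. The proteins are needed in near-equal amounts, and their mRNAs belong to the class with a terminal oligopyrimidine tract, whose translation follows nutrient signalling through mTOR. In preimplantation embryos their transcription starts with genome activation and supports the rise in protein synthesis before implantation. Mammalian genomes also carry many processed copies of these genes, made by reverse transcription of their mRNAs, and most of those copies are pseudogenes.

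The pairs of sequences that follow are shown because a read can be told apart only where its letters differ, and each pair holds a gene whose value differed between genotypes. They come from GENCODE M21 (build GRCm38), run 5′ to 3′ on the transcript's strand, and show the 120 aligned bases with the most differences. Capitals mark the bases that differ within a pair. Rps18 lies on chromosome 17, minus strand, and its processed copy Rps18-ps3 on chromosome 8, minus strand.
Rps18: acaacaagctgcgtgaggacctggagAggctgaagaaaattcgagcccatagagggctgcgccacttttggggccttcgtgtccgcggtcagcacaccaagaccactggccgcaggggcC
Rps18-ps3: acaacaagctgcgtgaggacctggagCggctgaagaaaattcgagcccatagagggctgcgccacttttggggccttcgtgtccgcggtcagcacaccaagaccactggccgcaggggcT
Rps3a1 lies on chromosome 3, minus strand, and Rps3a3, which RefSeq annotates as a pseudogene although its symbol passes the rule, on chromosome 13, plus strand.
Rps3a1: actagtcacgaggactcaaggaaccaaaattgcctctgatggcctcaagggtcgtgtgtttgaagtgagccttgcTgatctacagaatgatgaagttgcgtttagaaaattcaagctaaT
Rps3a3: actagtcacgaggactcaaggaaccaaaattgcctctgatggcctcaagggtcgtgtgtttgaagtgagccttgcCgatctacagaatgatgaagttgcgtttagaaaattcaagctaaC
Rpl10 lies on chromosome X, plus strand, and Rpl10l on chromosome 12, minus strand.
Rpl10: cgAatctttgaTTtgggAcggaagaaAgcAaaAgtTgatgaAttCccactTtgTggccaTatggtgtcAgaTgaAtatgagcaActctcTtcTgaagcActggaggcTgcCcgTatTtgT
Rpl10l: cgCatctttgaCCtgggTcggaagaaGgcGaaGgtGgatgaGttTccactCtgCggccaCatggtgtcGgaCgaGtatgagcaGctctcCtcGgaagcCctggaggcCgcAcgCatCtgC
Rpl39 lies on chromosome X, minus strand, and Rpl39l on chromosome 16, plus strand.
Rpl39: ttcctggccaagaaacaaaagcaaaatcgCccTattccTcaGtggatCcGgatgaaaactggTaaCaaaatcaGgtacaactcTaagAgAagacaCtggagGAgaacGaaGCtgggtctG
Rpl39l: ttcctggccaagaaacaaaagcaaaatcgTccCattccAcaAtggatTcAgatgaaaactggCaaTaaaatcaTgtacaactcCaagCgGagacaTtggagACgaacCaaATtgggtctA
Over the whole alignment, Rps18 and Rps18-ps3 differed at 3 of 456 bases, with an identical run of 180 bases. Rps3a1 and Rps3a3 differed at 9 of 795 bases. Rps2, which encodes another small subunit protein, and its copy Rps2-ps13 differed at 7 of 882 bases, with an identical run of 302 bases. By contrast, Rpl10 and Rpl10l differed at 98 of 645 bases and Rpl39 and Rpl39l at 23 of 156, with no identical run longer than 23 and 38 bases.

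Sequence shared with other genes was high across the family. For each of the 69 members with an annotated coding sequence, the share of its 50-base words that also occur in a transcript of another gene was counted. The median share was 87.4%. It passed 75% in 49 members and reached 100% in 19, among them Rpl10, while only 7 members stood at 25% or less. Among those were Rpl39l, Rps3, Rpl8, Rpl10l, Rpl4 and Rpl7l1, and Rpl39l shared no word. A member shared words with a median of 8 other genes and with up to 120. The count used coding sequence, so untranslated ends, which these 3′ reads also cover, were not part of it. How the authors placed reads that match several genes is not given in the sources used here.

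Members with little shared sequence carried the highest levels. At E2.5 the 7 members at 25% or less had a median of 10290 CPM per kilobase of coding sequence, against 318 for the 30 members above 75% and under 100%, and 101 for the 18 members at 100%. At E4.5 the same classes held 6525 (7 members), 323 (30 members) and 80.1 (16 members). Spearman's rho between level per kilobase and percent shared was -0.70 over 68 members at E2.5. It was -0.69 at both later stages, over 67 and 65 members. This is a description across genes, which share libraries and depth and are not independent replicates. Rps3, at the mRNA entry of the small subunit, stood at 15410 CPM per kilobase at E2.5. Rpl8, of the large subunit, had 13150. Rpl10l and Rpl7l1 were the exceptions among the 7, with 85.4 and 116. Levels of the other members are therefore levels of the reads assigned to them.

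**Figure D1:**
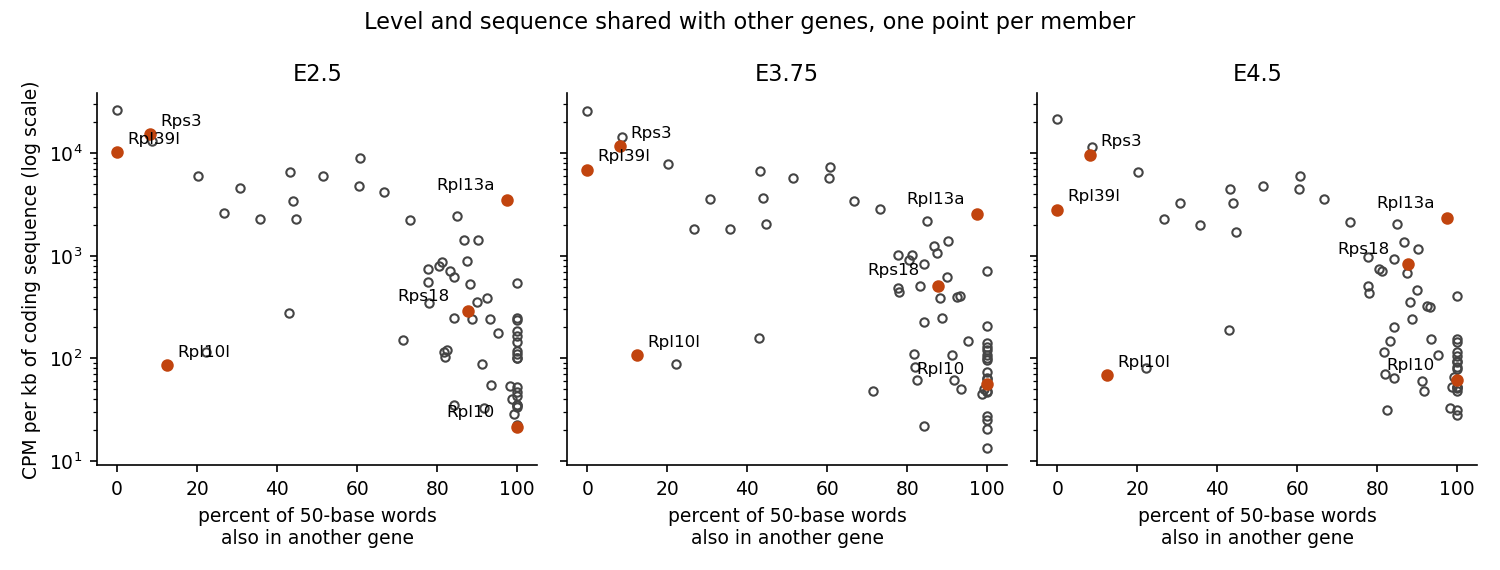
Each point is 1 member with a coding sequence at 1 stage, with the percent of its 50-base words found in other genes on the x axis and its mean CPM per kilobase of coding sequence over 6 libraries on a log y axis. Rpl39l shares no word and lies high at E2.5, Rps3 shares few and lies high, Rpl10 shares all words and lies low, and Rpl10l is low with 12.4% shared.

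Reads assigned to marked pseudogenes showed the same division. The 3 tables, in stage order, held 26, 25 and 28 rows marked -ps. Of those whose parent gene was in the same table, 12 of 24, 11 of 22 and 9 of 23 had a higher level per kilobase than the parent. Rpl10a-ps1 stood at 2683 CPM per kilobase at E2.5 against 52.2 for Rpl10a, a protein of the stalk on the side of the ribosome's exit site. Rps16-ps2 had 1413 against 237 for Rps16, and Rps13-ps2 had 379 against 28.5 for Rps13. The reverse was true of Rplp0-ps1, at 33 against 4780 for Rplp0.

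The summed reads of all members took a similar share of null and wild type libraries. At E2.5 the members held 7.7%, 8.07% and 7.82% of the 3 null libraries and 8.28%, 7.84% and 8.05% of the 3 wild type libraries. At E3.75 the shares were 7.9%, 8.04% and 7.68% in null and 7.86%, 7.95% and 7.87% in wild type. The groups overlapped at both stages. At E4.5 the shares were 6.51%, 6.53% and 6.49% in null and 6.5%, 6.79% and 6.59% in wild type, and the ranges again touched. The differences of the means (null minus wild type) were -0.19, -0.015 and -0.12 percentage points over the 3 stages in order, and with TMM factors they were -0.089, 0.23 and -0.38. When 1 library was left out the difference lay between -0.29 and -0.078 at E2.5 and between -0.099 and 0.081 at E3.75. At E4.5 it lay between -0.18 without wild type library A and -0.036 without wild type library B. These sums were described and not tested.

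By subunit, the large subunit genes held 3.68 to 3.85% of the null libraries and up to 3.96% of the wild type libraries at E2.5, where the groups overlapped. They held 4.05% ± 0.13 of null and 3.99% ± 0.047 of wild type at E3.75. At E4.5 they held 3.32% ± 0.024 of null and 3.31% ± 0.11 of wild type (SD, n = 3 each). The small subunit genes held 4.11% ± 0.099 of null and 4.2% ± 0.11 of wild type at E2.5, and 3.82% ± 0.056 of null and 3.9% ± 0.022 of wild type at E3.75. At E4.5 they held 3.19% ± 0.0059 of null and 3.32% ± 0.058 of wild type. At both later stages the 3 null libraries lay below the 3 wild type ones, but with TMM factors the E3.75 order turned (3.88% in null and 3.84% in wild type) while that at E4.5 stayed (3.13% in null and 3.39% in wild type). With TMM factors the large subunit sum at E4.5 also turned, to 3.25% in null and 3.37% in wild type, and both subunit sums were then lower in every null library than in every wild type library.

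**Figure D2:**
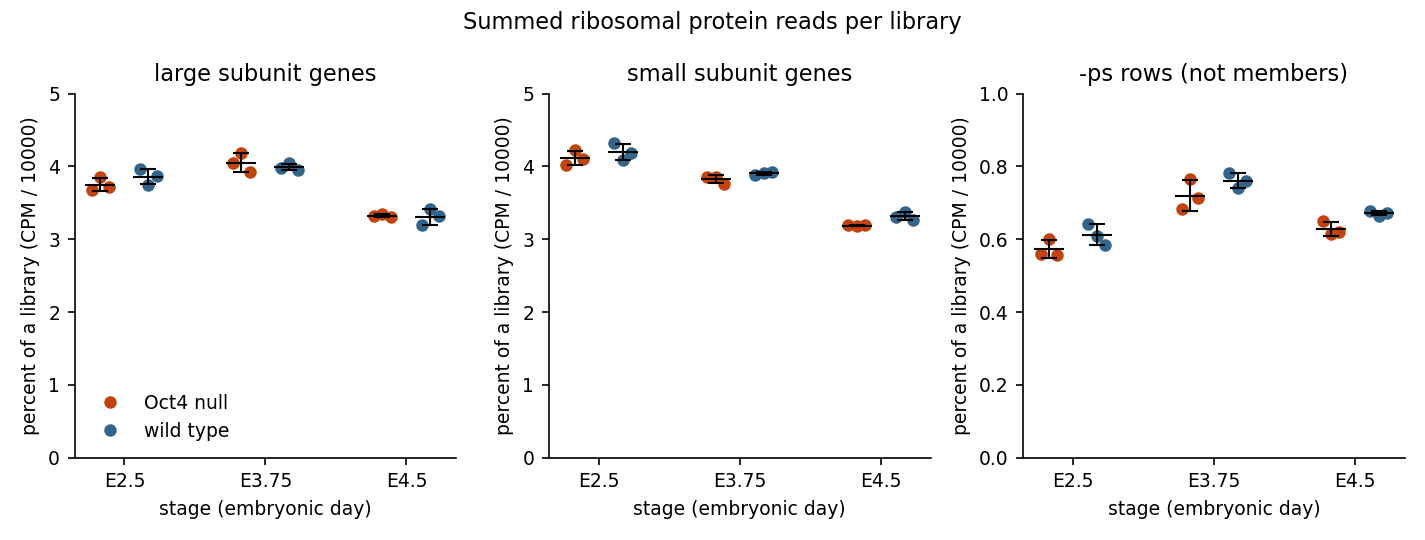
Points are libraries, bars are the mean and SD of 3 libraries, and the y axis is the summed CPM as a percent of the library, for large subunit members, small subunit members and the -ps rows. Null and wild type overlap for large subunit members at every stage, at 3.32% and 3.31% at E4.5, while small subunit members at E4.5 average 3.19% in null and 3.32% in wild type.

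Gene by gene, few members differed between null and wild type. The test was limma on log2(CPM + 1), fitted over all genes of a stage, with Benjamini-Hochberg adjustment over all of them and a threshold of 0.05. At E2.5, 1 of 71 members passed, higher in null, where 0.593% of all genes passed (0.409% higher, 0.184% lower). The E2.5 count was 0 without any 1 of the null libraries, where 0.0141% of all genes passed each time. It was 4 of 71 without wild type library 1, where 5.51% of all genes passed, and 12 of 71 without wild type library 2, where 10.9% passed. Those 12 were Rpl26, Rpl30, Rpl39l, Rpl7a, Rplp0, Rplp2, Rps18, Rps19, Rps2, Rps21, Rps27l and Rps3a3, of which 5 were higher and 7 lower in null. At E3.75, 3 members were higher and 1 lower of 70 (5.71%), where 8.2% of all genes passed (3.6% higher, 4.6% lower). The E3.75 count was 1 without null library 1 or 3, where 3.32% and 4.32% of all genes passed, and 2 without wild type library 3, where 3.14% passed. At E4.5 no member of 68 passed by limma, where 0% of all genes passed, and 9 members (13.2%) had an unadjusted p under 0.05, against 15% of all genes. On the reads recovered from CPM, with edgeR's quasi-likelihood test, 2, 5 and 0 members passed over the 3 stages in order, where 2.53%, 8.3% and 0.642% of genes passed. With DESeq2 the counts were 4, 3 and 0, where 4.27%, 6.65% and 4.29% of genes passed. A limma fit of all 18 libraries called 3, 1 and 2 members, where 2.56%, 3.92% and 4.07% of genes passed. With the first 2 libraries of each group, limma called 0, 1 and 0 members, where 0.0141%, 2.33% and 0% of genes passed. The median log2 fold change of the members was -0.04, 0.01 and -0.05 over the 3 stages in order, against -0.02, -0.04 and 0.06 for all genes. The fold change was within 0.25 log2 units of 0 in 67.6%, 82.9% and 72.1% of members, against 48.5%, 49.7% and 48.3% of all genes. Members whose null and wild type libraries did not overlap were 15.5%, 17.1% and 22.1%, against 27.8%, 27.2% and 22.2% of all genes. In these comparisons members and all genes were not matched for level, so a part of level in the shares near 0 was not tested. The labels name no litters, so the p-values cover only the variation among these libraries.

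**Figure D3:**
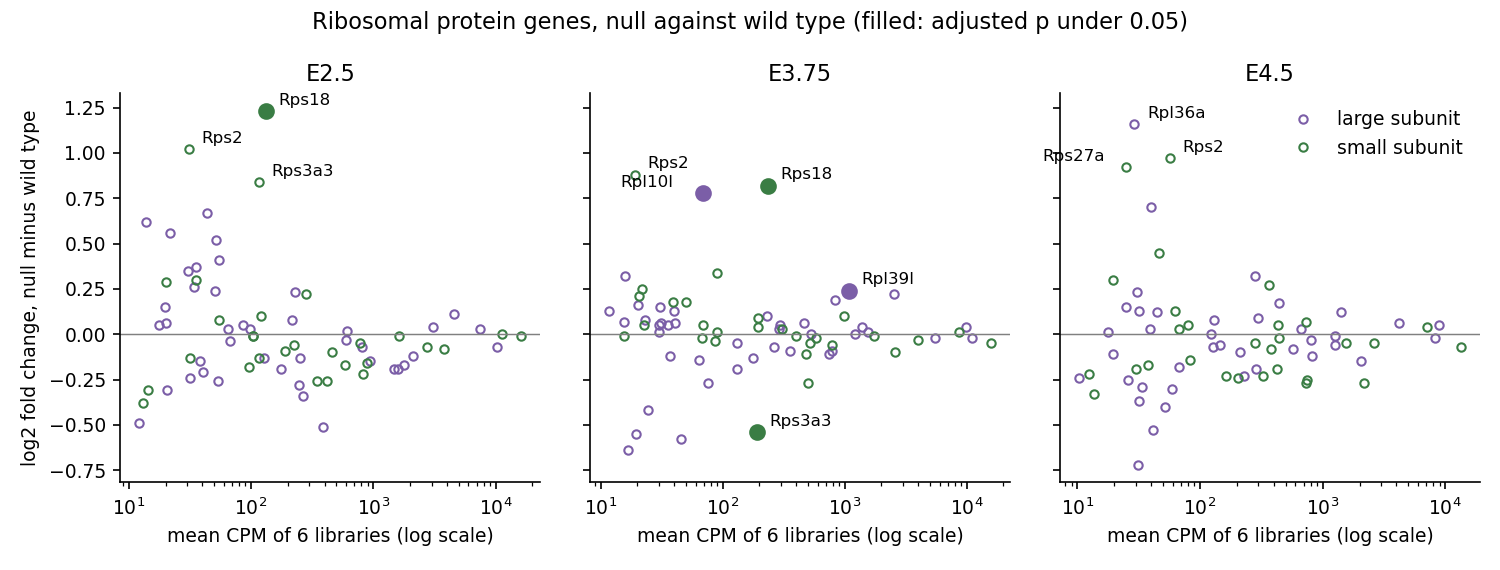
Each point is a member, with its mean CPM over 6 libraries on a log x axis and its log2 fold change, null minus wild type, on the y axis, and filled points passed an adjusted p of 0.05. Rps18 stands highest at E2.5 (1.23), 4 members are filled at E3.75, none is filled at E4.5, and the members above 1000 CPM lie near 0.

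Rps18, a protein of the head of the small subunit, was the one member called at 2 stages. At E2.5 it had 183, 176 and 191 CPM in the null libraries and 58.9, 72.6 and 110 CPM in the wild type libraries. Every null library lay above every wild type library (log2 fold change 1.23, SE 0.20, limma adjusted p = 0.0252). At E3.75 it had 319, 300 and 270 CPM in null and 120, 206 and 189 CPM in wild type, again without overlap (0.82, SE 0.15, limma adjusted p = 0.00155). At E4.5 it had 315, 386 and 400 CPM in null and 317, 473 and 387 CPM in wild type, and the groups overlapped (-0.08, SE 0.15, limma adjusted p = 0.818). With the first 2 libraries of each group the E2.5 call was lost (limma adjusted p = 0.103) and the E3.75 call held. Leaving out null library 1, 2 or 3 also ended the E2.5 call (limma adjusted p = 0.208, 0.125 and 0.175).

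The processed copy Rps18-ps3 went the other way. It had 264, 260 and 262 CPM in null and 544, 486 and 303 CPM in wild type at E2.5 (log2 fold change -0.72, SE 0.18, limma adjusted p = 0.0747). At E3.75 it had 77.5, 151 and 129 CPM in null, against 314, 166 and 271 CPM in wild type (-1.07, SE 0.21, limma adjusted p = 0.00213). At E4.5 it had 129, 65.4 and 80.4 CPM in null and 236, 124 and 187 CPM in wild type (-1.0, SE 0.27, limma adjusted p = 0.169), with overlap. Rps18 took 41%, 40.5% and 42.2% of the reads of the pair in the null libraries at E2.5, against 9.76%, 13% and 26.7% in wild type. The 95% Wilson intervals ran from 37.1 to 45.5% over the null libraries and from 7.56 to 30.7% over the wild type libraries, for counting error only, and did not meet. At E3.75 the share was 80.5%, 66.5% and 67.6% in null and 27.7%, 55.3% and 41.1% in wild type, and at E4.5 it was 71%, 85.5% and 83.3% in null and 57.3%, 79.2% and 67.4% in wild type.

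Counted together, Rps18 and Rps18-ps3 did not pass at any stage. The sum averaged 445 ± 8.95 CPM in null and 525 ± 99.3 CPM in wild type at E2.5 (log2 fold change -0.22, limma adjusted p = 0.359), and 416 ± 30.5 in null and 422 ± 45.3 in wild type at E3.75 (-0.02, limma adjusted p = 0.938). At E4.5 it was 459 ± 19.1 in null and 575 ± 22.4 in wild type (-0.32, limma adjusted p = 0.182; SD, n = 3 each). The E4.5 sums did not overlap, at 443.9 to 480.2 CPM in null and 552.5 to 597.2 CPM in wild type, as in 22.2% of all genes at that stage. So the higher null level of Rps18 was not seen in the sum at the stages where Rps18 passed, with SE of the sum's fold change of 0.13 at E2.5 and 0.10 at E3.75.

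Rps2, which lies at the mRNA entry of the small subunit, was the 1 member of the 67 in all tables with every null library above every wild type library at all 3 stages, a pattern that 0.589% of the 5430 genes in all tables showed. It had 53.6, 30.2 and 43.3 CPM in null and 18.5, 20.7 and 20.3 CPM in wild type at E2.5. At E3.75 it had 28.9, 18.9 and 27.1 CPM in null and 13.2, 18.7 and 8.68 CPM in wild type. The closest libraries there, at 18.9 and 18.7 CPM, differed by less than 1 read, which was 0.727 CPM in the null and 0.849 CPM in the wild type library. At E4.5 Rps2 had 71.3, 73.0 and 81.9 CPM in null and 27.6, 40.7 and 48.7 CPM in wild type. None of the 3 stages passed (log2 fold changes 1.02, 0.88 and 0.97, limma adjusted p = 0.082, 0.114 and 0.143), but at E2.5 Rps2 did pass with DESeq2 and by limma without wild type library 1 or 2. Its copy Rps2-ps13, on chromosome X, held most reads of the pair. Rps2 took 14.9 to 25.8% of them in null and 8.18 to 10.5% in wild type at E2.5. At E3.75 it took 6.52 to 11.7% in null and 3.01 to 6.61% in wild type, with overlap. At E4.5 it took 25.5 to 33.2% in null and 10.2 to 17.4% in wild type. The sum of the pair averaged 199 ± 10.7 CPM in null and 212 ± 38.9 CPM in wild type at E2.5, and 269 ± 22.0 in null and 296 ± 17.8 in wild type at E3.75. At E4.5 the sum averaged 264 ± 16.5 in null and 275 ± 4.90 in wild type (SD, n = 3 each). Its log2 fold changes were -0.07, -0.14 and -0.06 (limma adjusted p = 0.803, 0.487 and 0.818).

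Rps18 and Rps2 both lie on chromosome 17, as does Pou5f1, by RefSeq GRCm38.p6, with 90 protein-coding genes between Rps18 and Pou5f1. The other 3 members on that chromosome were Rps10, Rpl10a and Rpl7l1. Rps10 had log2 fold changes of -0.09, 0.04 and -0.23 over the 3 stages in order, Rpl10a of 0.26, 0.06 and -0.29, and Rpl7l1 of 0.05, -0.14 and -0.30, and none passed. A part of position on the chromosome in these differences was not tested.

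**Figure D4:**
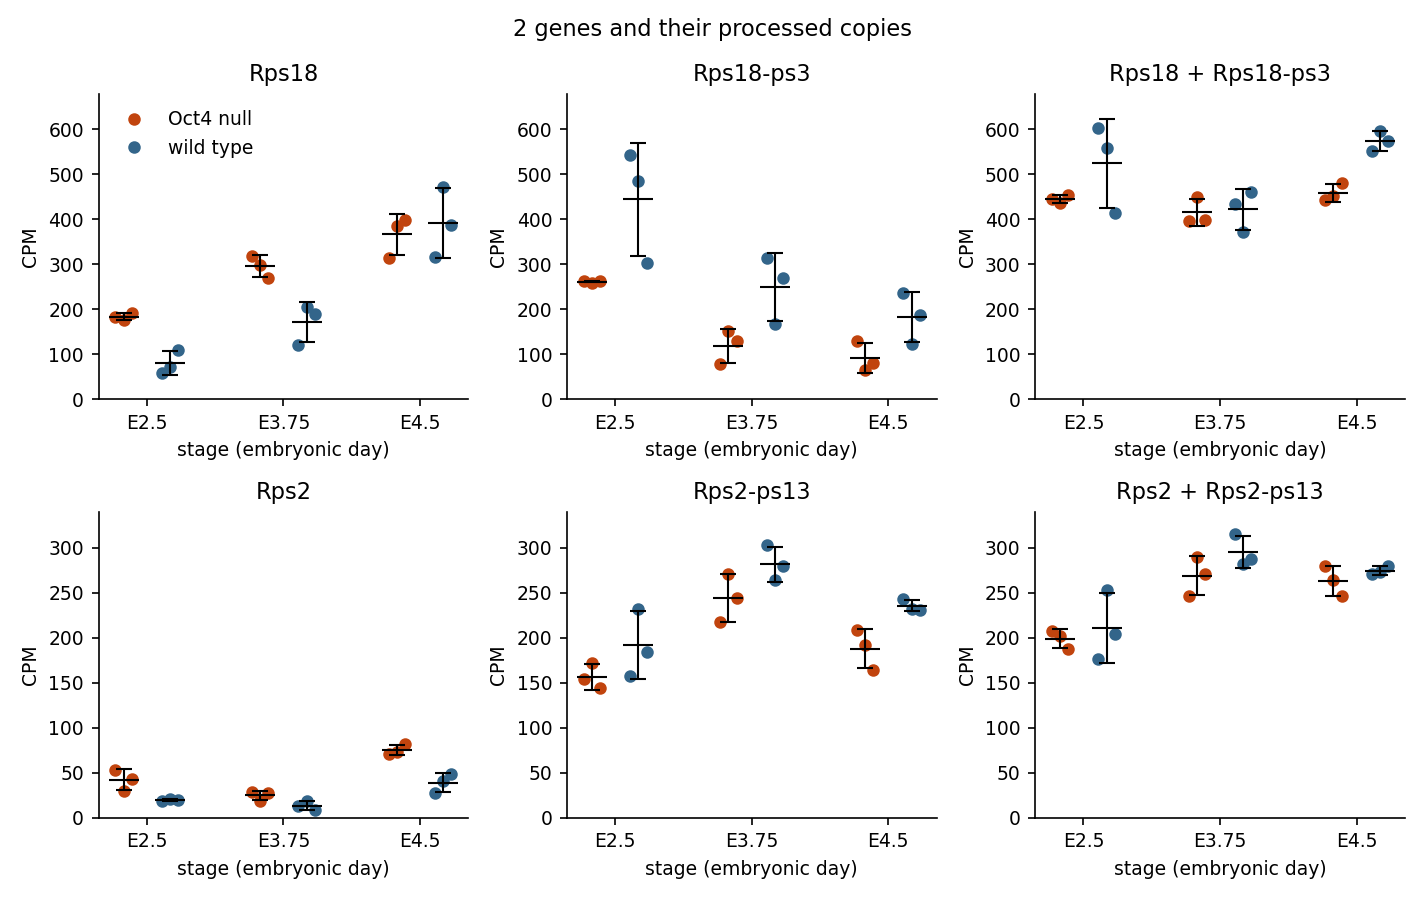
Points are libraries, with the mean and SD of 3, in CPM, for Rps18 with Rps18-ps3 (top) and Rps2 with Rps2-ps13 (bottom), and for their sums at the right. At E3.75 Rps18 averages 296 in null and 172 in wild type, Rps18-ps3 is higher in every wild type library, and the sum averages 416 in null and 422 in wild type.

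Rpl10l is a retrogene of Rpl10, whose protein helps form the peptidyl transferase site, and is known in mouse for its role in male meiosis. At E3.75 it was higher in null, with 113, 61.8 and 91.1 CPM, against 45.1, 47.6 and 57.3 CPM in wild type (log2 fold change 0.78, SE 0.20, limma adjusted p = 0.0196). The null libraries all lay above the wild type ones but spread widely. With the first 2 libraries the limma adjusted p was 0.0815, and it was 0.165 without null library 1 and 0.0853 without null library 3. Null had the higher median depth, and on reads thinned to equal depth it was 0.0759, while the fit of all 18 libraries gave 0.0587. Rpl10 itself had 24.3, 40.0 and 46.6 CPM in null and 31.97, 39.1 and 33.0 CPM in wild type. The sum of Rpl10 and Rpl10l averaged 126 ± 20.7 CPM in null and 84.7 ± 6.80 CPM in wild type (SD, n = 3 each) and still passed (0.55, limma adjusted p = 0.0332). At E2.5 and E4.5 Rpl10l overlapped between genotypes (0.41 and 0.12, limma adjusted p = 0.335 and 0.826).

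Rpl39l, a paralogue of Rpl39, whose protein lines the exit tunnel, is best known in mouse from spermatogenic cells and shared no 50-base word with another gene. At E3.75 it was higher in null, with 1154, 1178 and 1171 CPM, against 984, 1045 and 936 CPM in wild type (log2 fold change 0.24, SE 0.07, limma adjusted p = 0.0429). The difference was small and the groups were apart. With the first 2 libraries the limma adjusted p was 0.528, summed with Rpl39 it was 0.0699, and it was 0.103, 0.0988 and 0.164 without null library 1, 2 or 3 and 0.213 without wild type library 3. It was 0.107 on reads thinned to equal depth, 0.168 in the fit of all 18 libraries and 0.0526 with the replicate block. At E2.5 it had 1531, 1450 and 1503 CPM in null and 1989, 1431 and 1730 CPM in wild type, with overlap (-0.19, limma adjusted p = 0.326). At E4.5 it had 466, 479 and 450 CPM in null and 376, 462 and 408 CPM in wild type, with overlap (0.17, limma adjusted p = 0.47).

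Rps3a3, the copy of Rps3a1, was the 1 member called lower. At E3.75 it had 139, 172 and 150 CPM in null, against 288, 186 and 205 CPM in wild type (log2 fold change -0.54, SE 0.15, limma adjusted p = 0.0247), and with the first 2 libraries the limma adjusted p was 0.0888. It was 0.124 and 0.074 without null library 1 or 3, and 0.109 and 0.0544 without wild type library 1 or 3. The E3.75 call was also lost with DESeq2 (adjusted p = 0.0632) and in the fit of all 18 libraries (limma adjusted p = 0.0839). At E2.5 the order was opposite, with 104, 191 and 155 CPM in null and 69.8, 83.0 and 92.4 CPM in wild type, apart but not called (0.84, limma adjusted p = 0.077). At E2.5 it did pass, as higher, with edgeR's quasi-likelihood test, with DESeq2, in the fit of all 18 libraries, and by limma without wild type library 1 or 2. At E4.5 it had 441, 447 and 424 CPM in null and 425, 473 and 373 CPM in wild type. The sum of Rps3a1 and Rps3a3 averaged 534 ± 36.2 CPM in null and 540 ± 6.37 CPM in wild type at E2.5, and 463 ± 36.9 in null and 528 ± 88.6 in wild type at E3.75 (SD, n = 3 each), with log2 fold changes of -0.02 and -0.18 (limma adjusted p = 0.937 and 0.321).

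The null effect was compared between stages in a fit of all 18 libraries over the 5430 shared genes. From E2.5 to E3.75 it changed for Rps3a3 by -1.37 log2 units (SE 0.25, limma adjusted p = 0.0079), where 1.12% of genes passed. From E2.5 to E4.5 it changed for Rps18 by -1.31 (SE 0.27, limma adjusted p = 0.0213), where 1.01% of genes passed. From E3.75 to E4.5 no member passed, where 0.0921% of genes passed, and Rps18 had -0.90 (limma adjusted p = 0.131). With the first 2 libraries of each group no gene passed in any of the 3.

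At E4.5 the members with the largest fold changes did not pass. Rpl36a had 82.2, 17.5 and 29.8 CPM in null and 16.6, 15.5 and 13.8 CPM in wild type (log2 fold change 1.16, SE 0.46, limma adjusted p = 0.272), and the first null library, the shallowest of all at 364936 reads, carried most of it. Rps27a, which encodes a ubiquitin fused to a small subunit protein, had 38.4, 29.7 and 29.8 CPM in null and 14.7, 15.5 and 20.2 CPM in wild type (0.92, SE 0.28, limma adjusted p = 0.187). In the fit of all 18 libraries, Rps27a passed and so did Rps14, a core protein of the small subunit platform, with 2118, 1891 and 1870 CPM in null and 2655, 2181 and 2285 CPM in wild type. Rps14 had a log2 fold change of -0.27 (SE 0.09, limma adjusted p = 0.204) within the stage.

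The members with known special roles that are named next did not pass within-stage limma over all libraries. The stalk proteins, which recruit translation factors, had log2 fold changes of 0.11, -0.02 and 0.06 for Rplp0, 0.04, 0.22 and -0.15 for Rplp1 and -0.19, 0.00 and -0.01 for Rplp2 over the 3 stages in order. Rplp1 came nearest, at 2704 ± 95.6 CPM in null and 2327 ± 289 CPM in wild type at E3.75 (SD, n = 3 each; limma adjusted p = 0.0575), with overlap, and did pass there with TMM factors, DESeq2 size factors and edgeR's quasi-likelihood test and without wild type library 2. At E4.5 its null libraries were all lower than the wild type ones (limma adjusted p = 0.366). Rpl5, which with Rpl11 binds Mdm2 when ribosome assembly fails, stood at 21.2 ± 6.93 CPM in null and 18.5 ± 3.02 CPM in wild type at E2.5. Rpl23, which also binds Mdm2, had fold changes of -0.03, 0.00 and -0.08. Rpl26, known to bind p53 mRNA, had 267, 385 and 320 CPM in null and 470, 445 and 453 CPM in wild type at E2.5, all null libraries lower (-0.51, SE 0.13, limma adjusted p = 0.0751), and fold changes of 0.06 and 0.09 later. At E2.5 Rpl26 did pass with DESeq2, in the fit of all 18 libraries, and by limma without wild type library 1 or 2. Rpl38, needed in mouse for translation of Hox mRNAs, averaged 34.6 ± 3.76 CPM in null and 26.9 ± 2.98 CPM in wild type at E2.5, higher in every null library (limma adjusted p = 0.411).

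Rps19, Rps24, Rps26 and Rps7, which are mutated in human Diamond-Blackfan anaemia, did not pass limma over all libraries at any stage. Rps19 had log2 fold changes of -0.26, -0.01 and -0.23, Rps24 of -0.06, 0.09 and -0.24, Rps26 of -0.05, 0.10 and -0.25 and Rps7 of -0.01, -0.04 and 0.13 over the 3 stages in order. Rps26, which sits at the mRNA exit, was lower in every null library at E2.5 (779, 768 and 767 CPM in null and 801, 811 and 786 CPM in wild type) and at E4.5, with 680, 675 and 675 CPM in null and 845, 781 and 790 CPM in wild type (limma adjusted p = 0.217). Rps27l, the paralogue of Rps27 and a p53 target, had 652, 671 and 655 CPM in null and 849, 729 and 814 CPM in wild type at E4.5, also apart (-0.27, limma adjusted p = 0.216). Rpl22, a large subunit protein with the paralogue Rpl22l1, averaged 1673 ± 60.4 CPM in null and 1887 ± 130 CPM in wild type at E2.5, and Rpl22l1 35.2 ± 2.82 in null and 41.1 ± 15.7 in wild type (SD, n = 3 each). Rpl22 was lower in every null library there, Rpl22l1 overlapped, and neither passed. Rpsa, known also as a laminin receptor, had 42.6, 40.6 and 33.9 CPM in null and 24, 42.6 and 30 CPM in wild type at E2.5. Its copy Rpsa-ps10 had 43.3, 41.1 and 45.4 CPM in null, against 91.6, 77.2 and 85.1 CPM in wild type at E2.5 (-0.95, SE 0.17, limma adjusted p = 0.0345), a call lost with the first 2 libraries (limma adjusted p = 0.667) and without null library 1, 2 or 3 or wild type library 3 (limma adjusted p = 0.208, 0.129, 0.223 and 0.128).

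Rps3, Rpl8 and Rpl4 were among the highest members and share little sequence, and their null and wild type libraries overlapped at each stage. Rps3 averaged 11270 ± 273 CPM in null and 11290 ± 1001 CPM in wild type at E2.5 (SD, n = 3 each). Rpl8 averaged 9941 ± 202 CPM in null and 10410 ± 346 CPM in wild type, and Rpl4 7568 ± 232 in null and 7429 ± 298 in wild type, at E2.5. Over the 3 stages the log2 fold changes of these 3 genes lay between -0.07 and 0.05, with SE of 0.05 to 0.07.

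Related gene lists were counted beside the share of all genes that passed limma, 0.593%, 8.2% and 0% over the 3 stages in order. Of the ribosomal proteins that the symbol rule leaves out, Fau and Rack1 did not pass at any stage. Rack1, the scaffold protein on the head of the small subunit, averaged 20090 ± 390 CPM in null and 19120 ± 326 CPM in wild type at E3.75 (SD, n = 3 each). Of 22 measured further mRNAs of the oligopyrimidine class, 1 was higher and 3 lower at E3.75 (4 of 22, beside 8.2% of all genes), and 0 passed at the other 2 stages. The higher one was the RNA host gene Gas5 (374 ± 12.1 CPM in null and 282 ± 24.8 CPM in wild type, log2 fold change 0.41, limma adjusted p = 0.0152). The lower ones were elongation factor genes Eef1b2 (-0.24, limma adjusted p = 0.00683) and Eef1a1 (-0.25, limma adjusted p = 0.0257) and the initiation factor gene Eif3f (-0.36, limma adjusted p = 0.0132). Of 79 measured genes of ribosome assembly and rRNA synthesis at E3.75, 2 passed: Nip7 was higher (0.38, limma adjusted p = 0.0258) and Rrp15 lower (-0.72, limma adjusted p = 0.0293), and 0 of 83 at E2.5 and 0 of 80 at E4.5 passed. The median log2 fold changes of the assembly list were 0.03, 0.04 and -0.06 over the 3 stages in order, against -0.02, -0.04 and 0.06 for all genes. The signs were opposite at each stage, but all these medians lay within 0.06 of 0 and their difference was not tested. A mixed list of 18 regulators held Myc, Mtor and Larp1 and also Trp53, Mdm2, Cdkn1a and Ccng1 of the p53 pathway. Of its measured genes, 0 of 12, 0 of 11 and 0 of 13 passed, with medians of 0.12, -0.23 and 0.28. The summed levels of this list at E4.5 were 1085 to 1143 CPM in null and 906 to 960 CPM in wild type, without overlap. The sum was not broken down by gene.

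Cell type markers moved at the stage with the most calls. At E3.75, 4 of 7 measured primitive endoderm markers (1 of the 8 listed had no row) were lower and 1 higher, and 5 of 8 epiblast markers were lower and 1 higher in null. Of all genes, 8.2% passed there (3.6% higher, 4.6% lower). Their summed levels were 1274 to 1362 CPM in null and 1111 to 1256 CPM in wild type for primitive endoderm, and 639 to 680 in null and 656 to 764 in wild type for epiblast. The median log2 fold changes were -1.06 and -0.89, so for primitive endoderm the sum was higher in null while the median was below 0. Of 8 trophectoderm markers, 1 was higher, with sums of 6233 to 7132 CPM in null and 6978 to 8193 CPM in wild type. Of 11 markers of maternal blood, oviduct, uterus or cumulus, 2 had a row, with sums of 49.4 to 103 CPM in null and 30.1 to 48.4 CPM in wild type, and the globin gene Hba-a1 was higher (limma adjusted p = 0.0052). At E4.5, where limma called 0% of all genes, epiblast markers summed to 351 to 392 CPM in null and 632 to 733 CPM in wild type, with 0 of 8 called. Primitive endoderm markers at E4.5 summed to 907 to 992 CPM in null and 1105 to 1285 CPM in wild type, also without overlap, with 0 of 6 called and a median log2 fold change of -0.95. The part of these markers and of the deeper null libraries in the member results was not tested.

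Across stages, the members' share of a library was lower at E4.5 in both genotypes. Tables were scaled separately, so levels across stages were put on the scale of the 5430 genes in all 3 tables and described without a test. On that scale members held 8.16% ± 0.19, 8.07% ± 0.18 and 6.77% ± 0.023 in null over the 3 stages in order, and 8.34% ± 0.24, 8.13% ± 0.036 and 6.89% ± 0.15 in wild type (SD, n = 3 each). Between E2.5 and E4.5, 13 of 67 members (19.4%) had all null libraries higher at E4.5 and 29 (43.3%) lower, against 25.6% and 42.4% of all genes. In wild type, 12 (17.9%) were higher and 27 (40.3%) lower, against 20.9% and 41.5% of all genes.

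Rpl39l had one of the lowest ratios of E4.5 over E2.5. On the shared scale it had 1553 ± 43.8, 1198 ± 13.1 and 483 ± 15.1 CPM in null over the 3 stages in order, and 1781 ± 294, 1018 ± 55.2 and 432 ± 45.1 CPM in wild type. The E4.5 libraries lay under the E2.5 ones in both genotypes, at ratios of 0.311 in null and 0.242 in wild type. Its parent Rpl39 went the other way, with ratios of 1.44 in null and 1.54 in wild type. Rpl30, a large subunit protein also known to bind its own pre-mRNA in yeast, had ratios of 0.214 in null and 0.204 in wild type. Rps27a had ratios of 0.293 in null and 0.139 in wild type. Rpl39 shared 84.1% of its coding sequence words with 8 other genes, Rpl30 83.3% with 16 and Rps27a 100% with 14. The ratios of Rpl39, Rpl30 and Rps27a are therefore ratios of the reads assigned to them.

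The 4 members with the highest wild type ratios were Rps3a3, Rps18, Rpl7a and Rpl10. Rps3a3 had 156 ± 45.4, 158 ± 17.1 and 455 ± 12.9 CPM in null over the 3 stages in order, and 84.8 ± 11.7, 233 ± 56.3 and 441 ± 52.1 CPM in wild type, at ratios of 2.92 in null and 5.2 in wild type. Rps18 had 191 ± 7.88, 304 ± 25.3 and 382 ± 47.0 CPM in null and 83.6 ± 27.6, 177 ± 46.3 and 408 ± 81.5 CPM in wild type, so that the genotypes were apart at E2.5 and E3.75 and met at E4.5. Rpl7a, a large subunit protein, had ratios of 2.35 in null and 3.48 in wild type, and Rpl10 of 2.88 in null and 2.9 in wild type. Rpl7a shared 93.4% of its coding sequence words with other genes, 120 in number, and Rpl10 shared 100% with 15. Their ratios are therefore also ratios of the reads assigned to them, and sums with their copies were not compared between stages. The Rps3a3 and Rps18 ratios are those of members with a near-identical copy, and the sums of these pairs differed less between stages. The sum of Rps18 and Rps18-ps3 had E4.5 over E2.5 ratios of 1.03 in null and 1.1 in wild type, with overlap between the stages, and that of Rps3a1 and Rps3a3 had 1.34 in null and 1.32 in wild type. In each of the 4 members, the E4.5 libraries of a genotype lay above its E2.5 libraries.

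**Figure D5:**
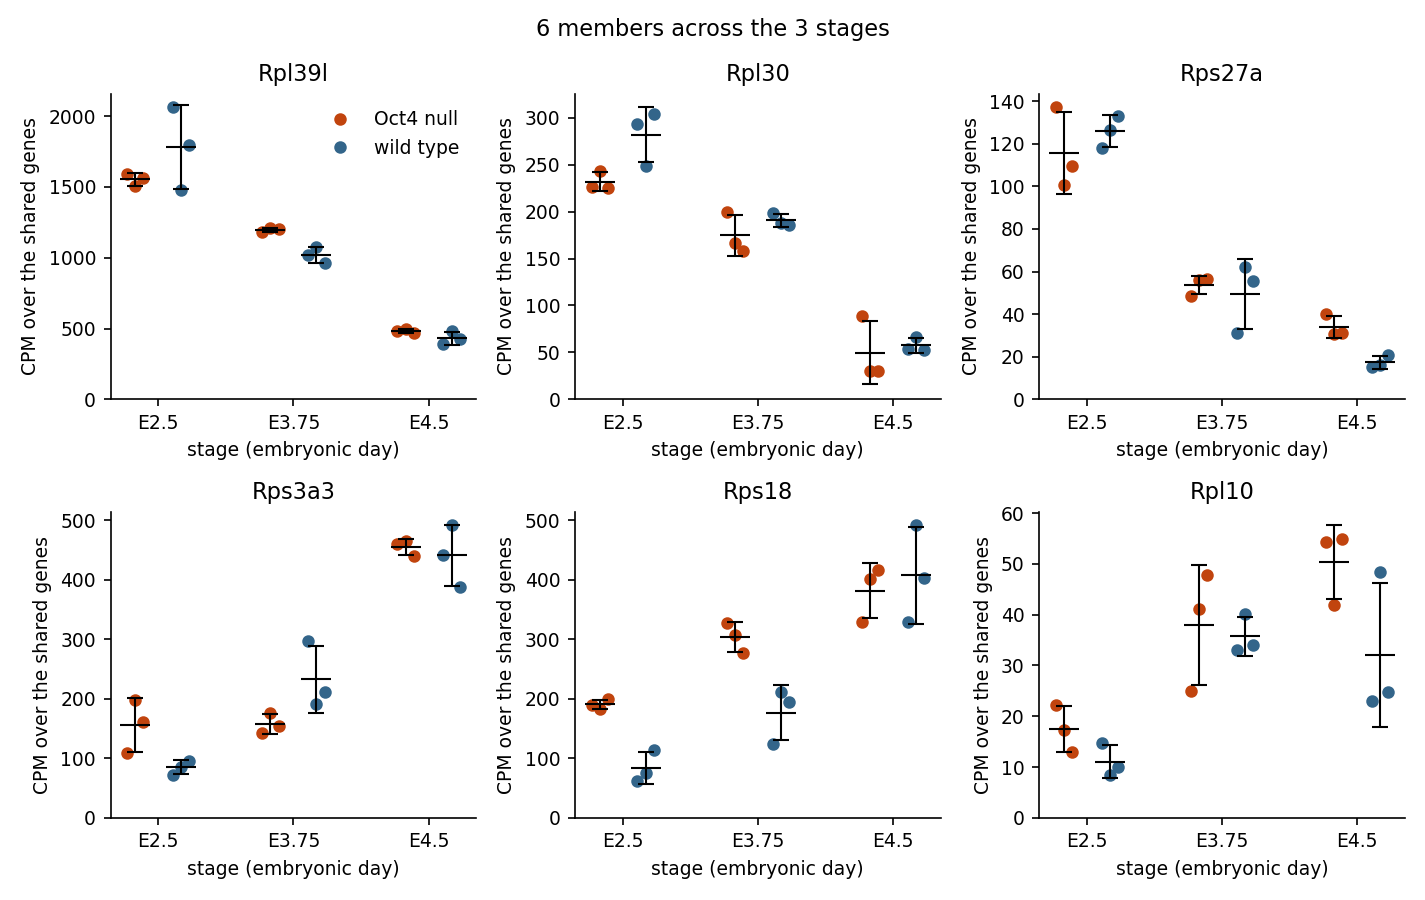
Points are libraries, with the mean and SD of 3, in CPM over the genes in all 3 tables, for 6 members over the 3 stages in order. Rpl39l, Rpl30 and Rps27a are lowest at E4.5 in both genotypes, Rps3a3 and Rpl10 stand higher at E4.5 than at E2.5, and Rps18 reaches 382 in null and 408 in wild type at E4.5.

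Members had a lower median variation between libraries of a group than genes in general, without a test. The median coefficient of variation was 7.78% of null and 13.1% of wild type over members at E2.5, against 12.6% of null and 20.2% of wild type over all genes. It was 10.7% of null and 10.8% of wild type at E3.75, against 13.6% of null and 17.8% of wild type over all genes, and 10.2% of null and 10.5% of wild type at E4.5, against 18.1% of null and 18.3% of wild type. Among genes of at least 1000 CPM, the 13 members at E2.5 had 3.89% in null and 8.46% in wild type, against 3.87% in null and 6.74% in wild type for all genes at that level. At E3.75 such members had 3.29% in null (14 members) and 2.53% in wild type (12 members), against 4.31% in null and 5.35% in wild type. The 12 such members at E4.5 had 3.44% in null and 5.29% in wild type, against 5.74% in null and 5.64% in wild type.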

How the data were processed

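Whole-embryo poly(A) RNA was measured in 18 libraries, 3 per genotype and stage. Per the labels' protocols, oligo(dT)-primed cDNA was amplified next to the poly(A) tail, which favours the 3′ end. The deposited values are CPM, scaled by the authors within each stage. Per the submitters' processing notes, edgeR and build mm9 were used. Aligner and counter: not given in the sources used here, nor is the handling of reads with several matches. Whole reads were recovered from 100% of the 121650 CPM values (within 0.01 reads). There were 0 columns of other samples.

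Members, gene lists and alternatives were chosen with earlier results of these data known. limma 3.58.1 (R 4.3.3, trend, two-sided) was fitted to log2(CPM + 1) over all genes of a stage, and stage differences of the null effect over 5430 shared genes in all 18 libraries. Fold changes on that scale understate changes of low genes. edgeR 4.0.16 and DESeq2 1.42.0 on the recovered reads, thinning, other scalings, filters and sums with copies were alternatives. The limma step was tested on simulated data. Shared sequence was counted as 50-base words of GENCODE M21 coding sequences. Symbols came from the reference tables, for 6968, 6546 and 6443 rows. Named were members past the threshold, the 3 largest fold changes of a stage at 10 CPM or more, members with fixed roles, and -ps rows that passed or whose parent did. Rpl36a, Rpl30 and the other members named for stage ratios or for the highest levels were picked after their values were seen, except those with fixed roles. Wilson intervals (95%) cover counting error only. Some genes are not reported here.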

Additional observations from a re-analysis of the deposited data

Results flagged for a closer look

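The null effect on Rps3a3 differed between E3.75 and E2.5 by -1.37 log2 units in the test of the difference itself, since its null libraries were the lower ones at E3.75 and the higher ones at E2.5. The null effect on Rps18 differed between E4.5 and E2.5 by -1.31 log2 units in the same kind of test, as its null libraries were higher at E2.5 and overlapped with wild type at E4.5. Both genes have a near-identical copy in the tables, and with the first 2 libraries of each group neither difference passed (limma adjusted p = 0.453 for Rps3a3 and 0.384 for Rps18).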

How the results depend on the processing

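Over all alternatives, 86 of 110 summary values kept their side or size, and 106 of 143 values of single called genes kept their call and direction. At E2.5 the count of members called, 1 by limma, was 2 by edgeR, 4 by DESeq2 and 3 with all 18 libraries in one fit, and 0 with the first 2 libraries of each group or with copies marked -ps added to their parents, with 0 to 12 when 1 library was left out. At E3.75 the count of 4 was 1 with the first 2 libraries and in the 18-library fit, 2 on reads thinned to equal depth and 2 with paralogues summed, with 1 to 5 when 1 library was left out. At E4.5 the count of 0 was 2 in the 18-library fit. The count of all genes called was 179 by edgeR and 232 by DESeq2 at E2.5, against 42 by limma, 552 and 288 at E3.75, against 545, and 42 and 112 at E4.5, against 0. The difference of the null effect called 0 members with the first 2 libraries, for E3.75 minus E2.5 and for E4.5 minus E2.5. The summed share differed by 0.23 (TMM factors) and 0.21 (DESeq2 size factors) percentage points at E3.75, against -0.015, and by -0.38 and -0.33 at E4.5, against -0.12. Adding the -ps rows moved the Rps18 log2 fold change to -0.22 at E2.5 and -0.02 at E3.75, neither of which passed. Where not shown by the alternative's own construction, the cause was not tested. Thinning and paralogue sums were chosen after seeing the data.

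Same-numbered null and wild type libraries correlated at 0.026, 0.117 and -0.032 at E2.5 and -0.006, -0.070 and 0.043 at E3.75. Differently numbered ones ran from -0.101 to 0.111 at E2.5 and from -0.069 to 0.068 at E3.75. With 3 libraries per group, the third near an average of the first 2, these values cannot exclude pairing by replicate number. A fit with the replicate block called 1 member and 30 genes at E2.5, and 3 members and 438 genes at E3.75. No paired analysis was possible at E4.5 because the wild type columns carry no number. Wild type libraries had 515745 to 1233635 reads, and members at about 10 CPM then rest on few reads.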
